A study of Mus musculus with 30 samples.

Results

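The genes described here lie on mouse chromosome 2 (GRCm38/mm10) and changed little with interferon gamma (IFNG) in wild-type (WT) cells. The limit was on the size of the change and not on a test, so a member can still respond. Snx5, for example, ran from 439 to 522 CPM in untreated WT libraries and from 621.5 to 672 CPM with IFNG. Members were chosen by 2 measured values: a mean of at least 1 CPM (a gene's count scaled by its library's total after TMM normalization) over all libraries, and a log2 ratio of mean IFNG to mean untreated CPM, with 0.5 CPM added to each mean, between -0.5 and 0.5 over the 18 WT libraries. Of 3804 chromosome 2 genes in the count table, 973 reached 1 CPM, 95 of these were left out for their IFNG response, and 878 were members. Protein-coding genes made up 770 of the members (87.7%) and processed pseudogenes 50. The values at the edges of the rule are given as a description. Just inside the response limit were Osbpl2 (-0.496), Dlx1 (-0.49) and Mir7578 (-0.49). Just outside were Gtf3c5 (0.50, just past the limit), Dusp2 (-0.51) and Secisbp2l (0.51). At the limit on level, Gm24451 (1.01 CPM) and Gchfr (1.02 CPM) were members, and Cdnf (0.994 CPM) and Gm26165 (0.983 CPM) were not.

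RNA-seq was done on J774A.1 cells, a mouse macrophage-like line, as 5 clones with 3 libraries for each clone and treatment, 30 libraries in all. WT1, WT2 and WT3 were WT clones grown from single cells that were not electroporated. KO1 and KO2 carried a homozygous deletion of B2_Mm2.Dicer1, a B2 SINE transposable element in an intron of Dicer1, on chromosome 12, made by electroporation of Cas9 with a pair of guide RNAs. Each clone was left untreated or given 100 ng/mL mouse IFNG for 4 h, all in the same serum-containing medium. Each KO line is 1 clone, and the libraries of a clone are not independent clones, so the p-values below measure the spread between libraries and may be technical. Library totals ran from 15566122 to 37992642 counts (median 23682133.5).

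IFNG acts on macrophages through its receptor and JAK kinases, whose signal acts at gamma-activated sites near interferon-stimulated genes (ISGs), and most genes of the cell keep close to their level in its first hours. Mouse chromosome 2 carries many such genes, among them Spi1, which encodes the myeloid transcription factor PU.1, and genes of the ribosome, proteasome, mitochondrion and lysosome. Neighbours on a chromosome often have unrelated functions. The comparison asked where on the chromosome the 2 KO clones lay above the WT clones, and whether any WT clone differed from the others there. In bulk RNA, fewer cells expressing a gene and less RNA per cell cannot be told apart. No DNA measurement was analysed here.

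Shown next are 4 members that mark the places where clones differed, by the 100 bases before their transcription start, as given by RefSeq on GRCm38.p6, 5′ to 3′ on the gene's own strand, with CG dinucleotides in capitals. Btbd3, Dstn and Rrbp1 lie where both KO clones were higher than every WT clone, and Psma7 lies near the chromosome's end, where WT1 and both KO clones were higher than WT2 and WT3. The windows are chr2:138256484-138256583 (+) for Btbd3, chr2:143915231-143915330 (+) for Dstn, chr2:144011264-144011363 (-) for Rrbp1 and chr2:180042465-180042564 (-) for Psma7.
Btbd3: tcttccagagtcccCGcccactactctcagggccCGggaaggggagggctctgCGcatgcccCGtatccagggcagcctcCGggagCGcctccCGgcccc
Dstn: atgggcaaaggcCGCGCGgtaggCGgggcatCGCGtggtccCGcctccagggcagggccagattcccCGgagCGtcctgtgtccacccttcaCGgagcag
Rrbp1: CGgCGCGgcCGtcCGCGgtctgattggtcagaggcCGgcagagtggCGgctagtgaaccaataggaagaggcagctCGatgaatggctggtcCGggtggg
Psma7: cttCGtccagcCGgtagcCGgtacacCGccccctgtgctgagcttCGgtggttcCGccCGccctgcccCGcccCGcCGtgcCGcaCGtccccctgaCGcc
These windows hold 7, 10, 10 and 13 CG dinucleotides, in that order. RefSeq gives Btbd3 another start, whose window (chr2:138278393-138278492) holds 2 CG and is not shown. Over the 300 bases from 250 before to 50 after the start, the median number of CG was 21 in the 687 members with an entry and 7 over 27025 genes. It was 21.5 in the 83 chromosome 2 genes with an entry that were left out for their IFNG response (responders). A CG-rich start was thus common among members and responders alike. The IFNG-response motif TTCNNNGAA (gamma-activated site), searched on both strands, was present in 51 of the 687 (7.42%), in 5 of 83 chromosome 2 responders with an entry (6.02%) and in 2582 of the 27025 genes (9.55%). The interferon-stimulated response element, searched as GAAANNGAAA, was present in 25 members (3.64%), 4 responders (4.82%) and 1079 genes (3.99%).

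Dicer1, the gene that holds the deleted element, was looked at first. Untreated Dicer1 ran from 70.5 to 73.0 CPM in KO1 and from 101 to 108 CPM in KO2, against 96.7 to 110 CPM in WT1, 125 to 130 CPM in WT2 and 120 to 125 CPM in WT3. KO2 overlapped WT1 and lay below WT2 and WT3, and KO1 lay below all WT libraries. The untreated log2FC was -0.74 in KO1 (edgeR FDR-adjusted p-value 4.14e-05) and -0.18 in KO2 (0.179), and with IFNG it was -1.01 and -0.61. Over the 376 genes of chromosome 12 that passed the same limits as the members, the median shift from WT (defined below) was -0.36 in untreated KO1 and -0.004 in KO2, and -0.37 and 0.005 with IFNG. All 8 macrophage markers exceeded 1 CPM, and their summed CPM was 4715 to 6074 in untreated WT libraries and 6420 to 7362 in untreated KO libraries. They did not all move one way, since untreated Mertk was lower in KO (17.2 to 25.9 CPM, against 28.5 to 59.8 CPM in WT), Cd14 overlapped between WT and KO, and Adgre1 ran from 9.27 CPM in WT1 to 294 CPM in KO2. The markers of neutrophils, endothelium, fibroblasts, T cells, B cells and epithelium summed to at most 3.48 CPM each in any library, and the part of cell composition in the results below was not tested.

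WT1 differed from the other WT clones over all genes, and among the members at similar shares, which bears on every comparison with WT. In edgeR's quasi-likelihood test with Benjamini-Hochberg (BH) adjustment over all genes, 267 of 878 members were higher in untreated WT1 than in WT2 and WT3 (30.4%) and 274 were lower (31.2%), at an FDR-adjusted p-value under 0.05. Over all genes tested the shares were 26.4% higher and 26.2% lower. When WT2 was compared with WT1 and WT3, 4 members were higher and 2 lower, against 0.394% and 0.458% of all genes (55 and 64 of 13971). For WT3 against WT1 and WT2, 3 were higher and 4 lower, against 0.551% and 0.472% (77 and 66). In these comparisons the reference includes WT1, and its difference enters the spread between libraries. WT2 was therefore also compared with WT3 alone, a comparison added after seeing the data. There 73 of 877 members were higher in WT2 (8.32%) against 9.02% of all genes, and 65 were lower (7.41%) against 8.19%. Values are therefore given below with and without WT1.

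Over the whole set, both KO clones lay slightly above WT. The shift of a gene was taken as the mean log2(CPM + 0.5) of a clone minus that of the WT clones, less the median of the same difference over 10969 genes of all chromosomes that passed the same limits. The median shift of KO1 was 0.080 in untreated cells, with its 3 libraries between 0.075 and 0.087, and 0.064 with IFNG. The median shift of KO2 was 0.063 untreated and 0.063 with IFNG. Untreated, 565 of 878 members (64.4%) lay above 0 in KO1 and 556 (63.3%) in KO2, while for the WT clones, each set against the other WT clones, the median lay between -0.005 and 0.005. The same values with WT2 and WT3 alone as reference were 0.071 and 0.058 for KO1, untreated and with IFNG, and 0.052 and 0.058 for KO2. Chromosome 2 was the second highest of 20 chromosomes by this median in untreated KO1 and KO2 and in KO2 with IFNG, and the third in KO1 with IFNG. The other chromosomes ran from -0.363 to 0.187 in untreated KO1 and from -0.269 to 0.197 in untreated KO2. Comparisons of KO1 and KO2 with WT share the same WT libraries, so their agreement is not a repeat of the experiment.

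Single members passed the test more often upward than downward. In untreated KO1, 176 of 878 members were higher than WT (20%) against 11.1% of all genes tested, and 61 were lower (6.95%) against 14.6%. In untreated KO2, 85 were higher (9.68%) against 4.89% of all genes, and 30 were lower (3.42%) against 6.7%. With IFNG, KO1 had 123 higher members (14%) against 8.76%, and 48 lower (5.47%) against 12.1%. KO2 with IFNG had 76 higher (8.66%) against 3.92%, and 33 lower (3.76%) against 6.12%.

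With both KO clones together against the 3 WT clones, 208 of 877 untreated members were higher (23.7%) against 12.4% of all genes, and 68 were lower (7.75%) against 14.2%. With IFNG these were 172 higher (19.6%) against 10.9%, and 61 lower (6.96%) against 13%. Without WT1, 317 untreated members were higher (36.1%) against 24.1% of all genes and 175 were lower (20%) against 23.7%. With WT1 as the only WT clone, 287 were higher (32.7%) against 16.9% and 103 were lower (11.7%) against 18.3%. With IFNG, 296 were higher (33.8%) against 22.4% and 164 lower (18.7%) against 22.4% without WT1, and 272 higher (31%) against 16.5% and 92 lower (10.5%) against 15.7% with WT1 alone. When counts were summed to 1 sample per clone, edgeR's quasi-likelihood test (BH-adjusted) called no member in untreated or IFNG-treated cells. That test called 1 of 16189 genes in untreated cells, where 1842 had an unadjusted p under 0.05.

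Taken in stretches of 10 Mb, the shift of the KO clones was not spread evenly. A stretch was counted where the medians of both KO clones, untreated and with IFNG, lay above those of all 3 WT clones, each WT clone being set against the other WT clones. By that rule 2 of the 19 stretches of chromosome 2 were counted (10.5%) against 3.49% of 258 stretches of the genome (9 stretches). With 1 common reference for every clone, the WT mean, in a rule added after seeing the data, 3 of the 19 were counted, 150 to 160 Mb being the third, against 22 of the 258. The 2 stretches were 120 to 130 Mb, where the KO medians were only 0.03 to 0.06, and 140 to 150 Mb, where they were 0.29 and 0.31 untreated in KO1 and KO2 and 0.30 and 0.35 with IFNG. The WT medians from 140 to 150 Mb were 0.10, -0.003 and -0.11 in untreated WT1, WT2 and WT3. From 180 Mb to the end, the KO medians were higher still at 0.37 and 0.35 untreated, but WT1 was at 0.65 and the other WT clones at -0.28 and -0.24. From 110 to 120 Mb, WT1 was at -0.51 and the KO clones at 0.02 and 0.09.

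**Figure D1:**
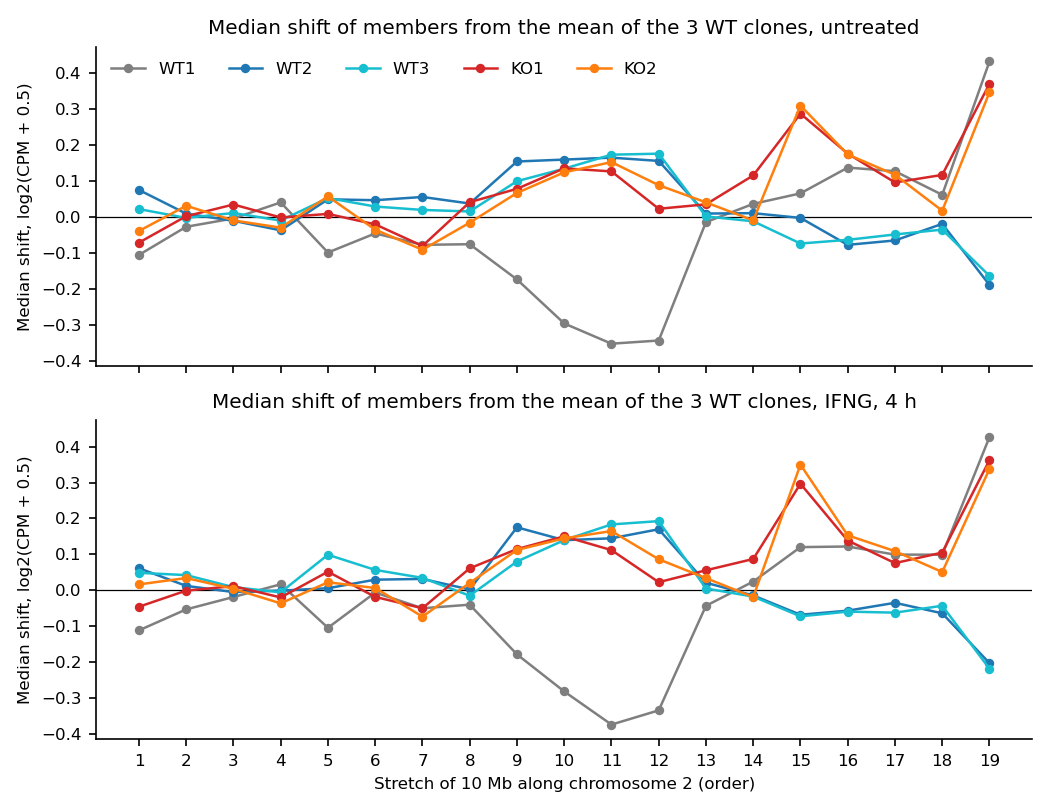
Median shift (log2(CPM + 0.5), centred) of the members in each 10 Mb stretch of chromosome 2, from the mean of the 3 WT clones, for each of the 5 clones, untreated and with IFNG, the stretches being numbered in order from the start of the chromosome. WT1 lies below the other clones from 80 to 120 Mb and above them from 180 Mb, and both KO clones lie above the WT clones from 140 to 150 Mb.

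To place the changes without fixed stretches, the members were ordered along the chromosome and divided where the shift of WT1, KO1 or KO2 from the mean of WT2 and WT3 stepped in untreated cells. The resulting 6 segments are called A to F. Since untreated values set the boundaries, the untreated segment values are a description, and the IFNG libraries of the same clones were not used to set them. The members were kept for a small IFNG change in WT, so the IFNG values are not independent of the untreated ones. Segment A (344 members, Fam171a1 to Gm13680, 3.171 to 83.35 Mb) had medians of -0.04, -0.02 and -0.02 in untreated WT1, KO1 and KO2. Segment C (117 members, Ubr1 to Tmx4, 120.9 to 134.6 Mb) had 0.008, 0.04 and 0.02. Segment E (40 members, Pard6b to 4921531C22Rik, 168.1 to 180.0 Mb) had 0.07, 0.04 and 0.04. In these 3 segments no clone had a median more than 0.1 from WT2 and WT3 in untreated cells. With IFNG, segment E was at 0.11 in WT1, 0.12 in KO1 and 0.02 in KO2.

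**Figure D2:**
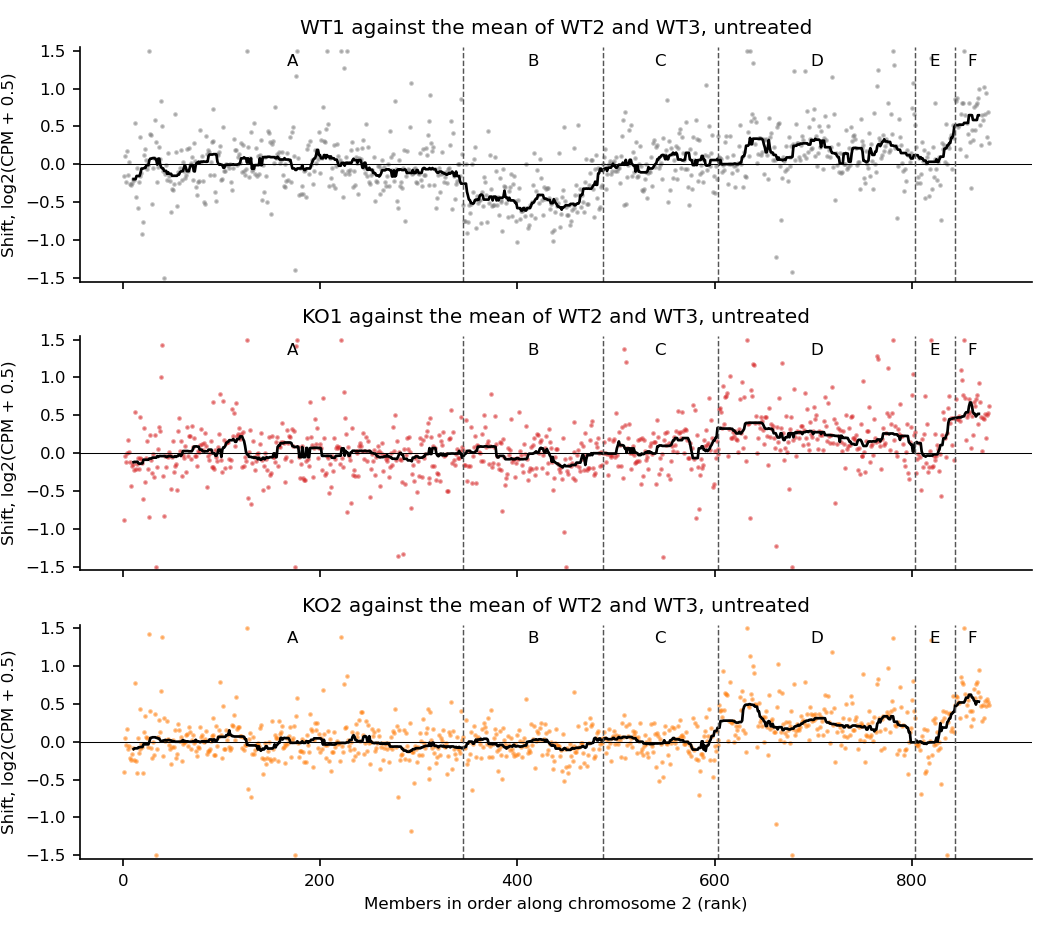
Shift of each member from the mean of untreated WT2 and WT3 (log2(CPM + 0.5), drawn within limits), in chromosome order, for WT1, KO1 and KO2, with a running median over neighbouring members and dashed lines at the boundaries of segments A to F. WT1 drops over the whole of B, both KO clones step up at the start of D, and all 3 clones are high in F.

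Segment B (142 members, Zc3h15 to Ttbk2, 83.65 to 120.8 Mb) set WT1 apart. The WT1 median was -0.48 untreated and -0.48 with IFNG, which is 0.716 of the level in WT2 and WT3 untreated, and only 17 of the 142 members lay above 0. The untreated WT1 libraries had medians from -0.51 to -0.46, and those of KO1 and KO2 lay between -0.07 and -0.02. In untreated cells 110 of the 142 (77.5%) were lower in WT1 than in WT2 and WT3, against 26.2% of all genes. Against WT1 as the only WT clone, 108 of the 142 were higher in the KO clones (76.1%) untreated, against 16.9% of all genes. With IFNG there were 106, against 16.5% of all genes. Against WT2 and WT3 alone, 22 were higher (15.5%) and 48 lower (33.8%) untreated, against 24.1% and 23.7% of all genes. On both sides WT1 changed between neighbouring members. Haus2 (-0.57), Cdan1 (-0.30) and Ttbk2 (-0.28) were followed by Ubr1 (0.01), Tmem62 (0.09) and Ccndbp1 (0.20). On the other side Nup35 (-0.16), Gm4735 (0.86) and Gm13680 (0.14) were followed by Zc3h15 (-0.54), Ctnnd1 (-0.75) and Gm28635 (-0.75). The IFNG libraries gave the same 2 boundaries. They come from the same clones and from members kept for a small IFNG change in WT, so this is not independent support.

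Celf1, which encodes a CUG-binding regulator of splicing and mRNA decay, is a member of segment B (90940382 to 91019497). Untreated levels were 110, 111 and 113 CPM in WT1, 139, 140 and 142 CPM in WT2, 145, 150 and 152 CPM in WT3, 170, 173 and 177 CPM in KO1, and 157, 159 and 172 CPM in KO2. All KO libraries lay above all WT libraries, and WT1 lay below the other WT clones. The log2FC of the KO clones was 0.33 (SE 0.077, edgeR FDR-adjusted p-value 0.00483) against all WT, 0.21 without WT1 and 0.58 against WT1 alone. Spi1 showed the same order of clones, with untreated WT1 at 192, 196 and 199 CPM, WT2 and WT3 together from 222 to 242 CPM, KO1 from 291 to 315 CPM and KO2 from 258 to 277 CPM. The log2FC of Spi1 was 0.35 (SE 0.061, edgeR FDR-adjusted p-value 0.000499) and 0.28 without WT1. Lmo2, which encodes a LIM-domain partner of blood transcription factors, spanned 73.3 to 95.6 CPM over the untreated WT libraries and 105 to 130 CPM over those of the KO clones, with a log2FC of 0.47 both with and without WT1. Celf1, Spi1 and Lmo2 were not typical of B. All KO libraries lay above all WT libraries in both treatments in only 5 of its 142 members, and below in 2. The untreated medians of B from WT2 and WT3 were -0.05 in KO1 and -0.04 in KO2.

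Segment D (200 members, Gm14038 to 9230111E07Rik, 134.8 to 167.8 Mb) held most of the members that were higher in both KO clones. The untreated medians were 0.17 in WT1, 0.26 in KO1 and 0.25 in KO2, and with IFNG they were 0.18, 0.23 and 0.26. Above 0 untreated were 150 of the 200 members in WT1, 176 in KO1 and 177 in KO2. Set against WT1, the KO medians were only 0.08 and 0.07 untreated. In the IFNG libraries, which did not set the boundaries, 53 members were higher in KO1 than in WT (26.5%) against 8.76% of all genes. In the same libraries 4 were lower in KO1 (2%) against 12.1%. For KO2 with IFNG, 49 were higher (24.5%) against 3.92%, and 1 was lower (0.5%) against 6.12%. Untreated, 75 were higher in KO1 (37.5%) against 11.1% of all genes, and 6 were lower (3%) against 14.6%. For untreated KO2, 52 were higher (26%) against 4.89%, and 2 were lower (1%) against 6.7%. KO1 and KO2 differed from each other in untreated cells in 45 members of segment D, with 30 higher in KO1 (15%) and 15 lower (7.5%), against 11.1% and 12.1% of all genes.

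Within D the shifts from WT2 and WT3 were wide. The most positive in untreated KO1 was 1.71 for Ralgapa2, a subunit of a Ral GTPase-activating complex, which was named after its values were seen and was at 1.54 in KO2. Among the 151 protein-coding members of D that overlap no other member, the untreated medians were 0.17, 0.26 and 0.25 in WT1, KO1 and KO2.

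The members of segment D were not alike in WT1. A finer division of the same untreated shifts set apart Gm14038 to Gm14117 (134.8 to 146.3 Mb, 29 members), so the untreated values of this stretch are again a description. There the untreated median was 0.009 in WT1, with libraries from -0.002 to 0.09, against 0.32 in KO1, with libraries from 0.29 to 0.34, and 0.28 in KO2, with libraries from 0.27 to 0.39. The libraries of the KO clones and WT1 did not overlap in this median, untreated or with IFNG, but in IFNG the WT1 libraries spread from 0.05 to 0.23. In the IFNG libraries, 21 of the 29 were higher in KO1 than in WT (72.4%) against 8.76% of all genes. In KO2 with IFNG 20 were higher (69.0%) against 3.92%. Both KO clones together had 22 of the 29 higher with IFNG against WT1 alone (75.9%), where 16.5% of all genes were. Against WT2 and WT3 alone 24 were higher (82.8%), where 22.4% of all genes were. None was lower in either, against 15.7% and 22.4% of all genes. In 14 of the 29, all KO libraries lay above all WT libraries in both treatments, against 30 of 200 in the whole of D. Among the next 10 members, Ralgapa2 to 3300002I08Rik (146.4 to 150.3 Mb), WT1, KO1 and KO2 were all high, with medians of 0.59, 0.63 and 0.60 untreated. From Gm14121 to the end of D (150.5 to 167.8 Mb, 161 members) they were 0.20, 0.23 and 0.23.

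At the start of D the step fell between Tmx4 (-0.01 in KO1, -0.04 in KO2) and Mkks (0.59 in KO1 and 0.49 in KO2, 0.10 in WT1), with Gm14038 (0.06 and 0.03) between them. Set by the IFNG libraries, this boundary lay 15 members away, and the others beyond it 14 and 7 members away. So the 2 boundaries of B were the same in both treatments, and the starts of D, E and F depended on the treatment that set them.

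Segment F (35 members, Lsm14b to Polr3k, 180.0 to 181.9 Mb) was high in WT1, KO1 and KO2 alike. Untreated medians were 0.65, 0.52 and 0.53, or 1.57, 1.43 and 1.45 times the level in WT2 and WT3. With IFNG they were 0.64, 0.57 and 0.53. The untreated library medians were 0.60 to 0.68 in WT1, 0.52 to 0.54 in KO1 and 0.54 to 0.56 in KO2, so the KO clones lay below WT1. In untreated cells 32 of 35 members were higher in WT1 than in WT2 and WT3 (91.4%), against 26.4% of all genes. Against all 3 WT clones, 10 members were higher in untreated KO1 (28.6%) against 11.1% of all genes, and 7 in untreated KO2 (20%) against 4.89%. None was lower, against 14.6% and 6.7% of all genes. Without WT1, 33 were higher in both KO clones together (94.3%) and none lower, against 24.1% and 23.7% of all genes. With WT1 alone 7 were higher and 7 lower (20% each), near the 16.9% and 18.3% of all genes.

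**Figure D3:**
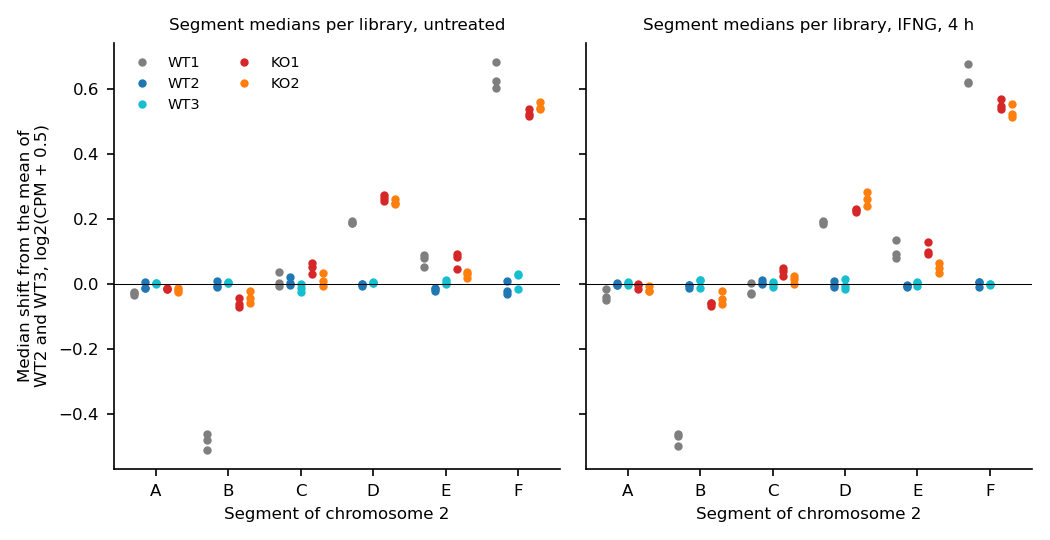
Median shift of the members of segments A to F in each library, from the mean of WT2 and WT3 of the same treatment (log2(CPM + 0.5)), untreated and with IFNG. The 3 libraries of a clone lie together, WT1 is lowest in B, the KO clones are highest in D, and WT1 is highest in F.

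**Figure D4:**
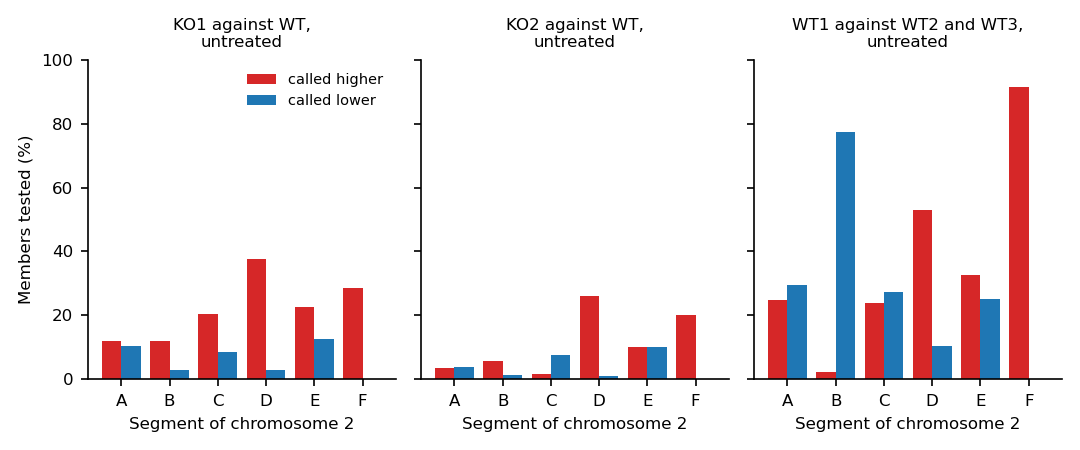
Percent of members of each segment called higher or lower (edgeR, FDR-adjusted p-value under 0.05) in untreated cells in KO1 against WT, in KO2 against WT and in WT1 against WT2 and WT3. Segment D has the highest share of members called higher for both KO clones, and B and F have the highest shares called lower and higher for WT1.

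Among the members within D, Btbd3, which encodes a BTB-domain protein known from dendrite orientation in neurons, was higher in both KO clones. Untreated levels were 8.60, 8.90 and 9.40 CPM in WT1, 8.89, 9.06 and 9.87 CPM in WT2, 8.24, 9.22 and 9.76 CPM in WT3, 16.5, 17.8 and 18.01 CPM in KO1, and 17.3, 17.97 and 18.4 CPM in KO2. No KO library overlapped a WT library, and the 3 WT clones lay together. The log2FC of the KO clones was 0.96 (SE 0.048, edgeR FDR-adjusted p-value 2.63e-09) untreated and 1.105 with IFNG, and it was 0.95 without WT1. Macrod2, which encodes an ADP-ribosyl hydrolase, lies after it and ran from 5.31 to 7.88 CPM in untreated WT and from 9.20 to 11.7 CPM in KO libraries, with a log2FC of 0.71 (0.74 without WT1).

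Dstn encodes destrin, an actin-depolymerizing protein. Its untreated levels were 268, 272 and 277 CPM in WT1, 207, 210 and 210 CPM in WT2, 210, 212 and 226 CPM in WT3, 399, 427 and 475 CPM in KO1, and 365, 365 and 372 CPM in KO2. All KO libraries lay above all WT libraries, and WT1 lay above WT2 and WT3. The log2FC was 0.78 (SE 0.084, edgeR FDR-adjusted p-value 7.21e-06) against all WT, 0.91 without WT1 and 0.54 against WT1 alone. Rrbp1, which encodes a ribosome-binding protein of the endoplasmic reticulum, ran from 389 to 424 CPM (median 408) in untreated WT and from 465 to 509 CPM (median 482) in KO. WT1 was at a log2FC of -0.005 (SE 0.038) from WT2 and WT3, and the log2FC of the KO clones was 0.23 with and without WT1. Snx5, a sorting nexin of the retromer pathway, spanned 439 to 522 CPM over untreated WT libraries and 552 to 596 CPM over untreated KO libraries, with a log2FC of 0.27 (SE 0.039).

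**Figure D5:**
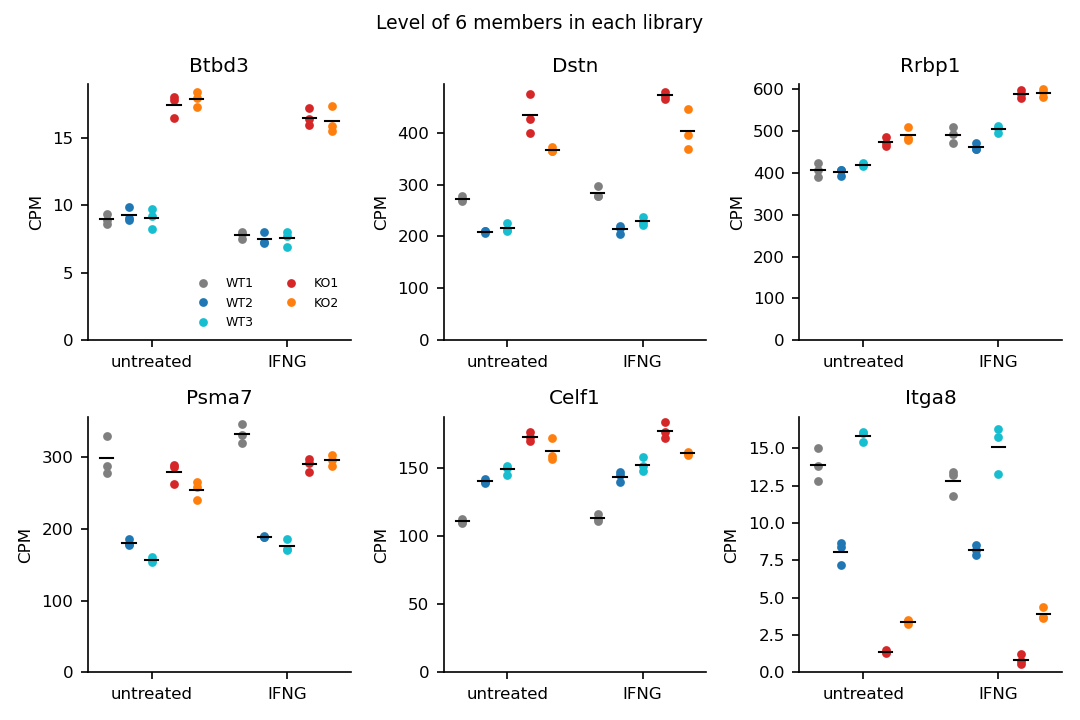
CPM in each library of 6 members, by clone and treatment, with a bar at the clone mean. Btbd3, Dstn and Rrbp1 (segment D) have all KO libraries above all WT libraries of the same treatment, WT1 is highest in Psma7 (F) and lies below the other WT clones in Celf1 (B), and Itga8 (A) is lower in both KO clones.

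Cst3, which encodes cystatin C, a secreted inhibitor of cysteine proteases, rose in both KO clones and was also high in WT1. Untreated levels were 356, 360 and 421 CPM in WT1, 250, 252 and 264 CPM in WT2, 227, 248.8 and 262 CPM in WT3, 541, 568.1 and 585 CPM in KO1, and 442, 477 and 492.5 CPM in KO2. KO libraries lay above all WT libraries, the log2FC was 0.82 (SE 0.13, edgeR FDR-adjusted p-value 0.000201), and against WT1 alone it was 0.44. Slc24a3, which encodes a sodium, calcium and potassium exchanger, was lower in level, at 1.05 to 1.56 CPM in untreated WT and 2.25 to 2.999 CPM in KO, and Gm11451, a processed pseudogene whose counts can share reads with its parent gene, at 0.632 to 1.37 CPM and 1.87 to 2.44 CPM. Their log2FC values were 0.99 and 1.12. In D, Abhd12 (a lysophosphatidylserine lipase), Rpn2 (a subunit of the oligosaccharyltransferase), Mapre1 (the microtubule plus-end protein EB1) and Eif2s2 (the beta subunit of initiation factor eIF2) had smaller rises, with log2FC values of 0.36, 0.26, 0.25 and 0.23 against all WT. Their untreated KO libraries all lay above the untreated WT libraries.

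Psma7, an alpha subunit of the 20S proteasome, and Rps21, a ribosomal protein of the small subunit, show how segment F differed. Untreated Psma7 was at 278, 288 and 330 CPM in WT1, 178, 179 and 186 CPM in WT2, 154, 157 and 160 CPM in WT3, 262, 286 and 289 CPM in KO1, and 241, 259 and 266 CPM in KO2. KO1 overlapped WT1, KO2 lay below WT1, and both lay above WT2 and WT3. The log2FC against all WT was 0.33 (SE 0.16, edgeR FDR-adjusted p-value 0.156). It was 0.66 (adjusted p-value 1.84e-07) without WT1 and -0.17 (adjusted p-value 0.0553) against WT1 alone. Rps21 had log2FC values of 0.56 (adjusted p-value 0.0164), 0.89 and 0.07 for the same references. Dnajc5, which encodes the chaperone cysteine string protein, and Ythdf1, a reader of N6-methyladenosine in mRNA, passed against all WT (log2FC 0.39 and 0.39), and against WT1 alone were at 0.23 and 0.13.

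Across all 4 comparisons of a KO clone with WT (KO1 and KO2, untreated and with IFNG), 37 members (4.21%) were called higher each time with all KO libraries above the range of WT. This was the case for 1.54% of all genes tested. Of the 37, 27 were in D, 4 in A, 3 in B, 2 in F and 1 in E. In the other direction 12 members (1.37%) met the same rule against 2.69% of all genes, and none of the 12 was in D, E or F.

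Taken per segment, the 12 were 7 of 344 members in A, 3 of 117 in C and 2 of 142 in B. Itga8, which encodes the integrin alpha 8 subunit, was at 12.8, 13.8 and 15.1 CPM in untreated WT1, 7.17, 8.38 and 8.64 CPM in WT2, 15.4, 16.0 and 16.1 CPM in WT3, 1.27, 1.37 and 1.499 CPM in KO1, and 3.26, 3.43 and 3.53 CPM in KO2. KO libraries all lay below WT, and the log2FC was -2.39 (SE 0.28, edgeR FDR-adjusted p-value 1.36e-05), with KO1 below KO2. Ncs1, which encodes neuronal calcium sensor 1, had 0 CPM in all 6 KO1 libraries, 0.134 to 0.243 CPM in untreated KO2 and 0.985 to 5.05 CPM in untreated WT, so no fold is given for KO1. Its log2FC in untreated KO2 was -4.00 (SE 0.71).

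Bmf, a pro-apoptotic BH3-only protein of the BCL2 family, was at 4.51 to 9.89 CPM in untreated WT and 2.23 to 4.10 CPM in KO, with a log2FC of -1.05. Zc3h6, a CCCH zinc-finger gene in C, had 4.26 to 6.85 CPM in untreated WT and 1.26 to 3.55 CPM in untreated KO (log2FC -1.12). Ppp1r26, a regulatory subunit of protein phosphatase 1, and Slc43a3, a purine nucleobase transporter, had log2FC values of -0.74 and -0.52. Among the members that rose outside D, Hacd1 (a 3-hydroxyacyl-CoA dehydratase of fatty acid elongation) went from 5.05 to 8.73 CPM in untreated WT to 13.5 to 16.97 CPM in KO (log2FC 1.28). Nacc2, a BTB-domain transcriptional repressor, had 27.01 to 36.8 CPM in untreated WT and 52.3 to 57.2 CPM in KO (log2FC 0.71), and Lrp4, a receptor for agrin of the LDL-receptor family, 1.71 to 3.195 CPM and 3.49 to 5.01 CPM (log2FC 0.81).

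By function, only the members within each list below were counted, such as 7 of 23 interleukin and innate immunity genes and 6 of 20 surface genes. Counts are for both KO clones against all WT in untreated cells. Of 13886 genes tested, 1715 were called higher and 1975 lower, and the median log2FC was 0.001. The background shares are 12.4% higher and 14.2% lower against all WT, and 24.1% higher and 23.7% lower without WT1. Over all members tested the shares were 23.7% higher and 7.75% lower against all WT, and 36.1% and 20% without WT1. Only members were counted, so a share near these is that of the chromosome and not of a function. No list was tested against them. Of 25 mitochondrial and metabolic members, 11 were higher and none lower, with a median log2FC of 0.17, and without WT1 15 were higher and none lower. Examples are Atp5g3 and Atp5e, subunits of ATP synthase (log2FC 0.19 and 0.30), and Idh3b, a subunit of isocitrate dehydrogenase (0.16). A call for both KO clones together does not mean that each clone lay above WT. Untreated Idh3b in KO2 (115.9 to 118.6 CPM) lay within WT2 (112.1 to 120.9 CPM). Untreated Atp5g3 in KO2 (236.8 to 245.1 CPM) overlapped WT2 (235.6 to 243.2 CPM). Atp5e in untreated KO2 (134.9 to 144.2 CPM) lay within WT1 (117.9 to 147.6 CPM). Of 18 members of the lysosome, endosome and protease list, 9 were higher and none lower, with a median of 0.14, and without WT1 11 were higher and 3 lower. Ctsa, the protective protein cathepsin A, was at 969 to 1113 CPM in untreated WT and 1234 to 1438 CPM in KO libraries (log2FC 0.37). Ctsz, the carboxypeptidase cathepsin Z, was at 879 to 1049 CPM and 1152 to 1372 CPM (log2FC 0.41). Of 16 ribosome and translation members, 7 were higher and none lower (median 0.16), and without WT1 9 were higher and none lower.

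The transcription factor list had 4 of 10 members higher and none lower (median 0.13), and without WT1 5 higher and 1 lower, among them Spi1, Lmo2 and Ncoa3, a nuclear receptor coactivator (log2FC 0.27). RNA processing had 6 of 22 higher and none lower (median 0.08), and 9 and 2 without WT1, with Rbm39, a splicing factor, at 0.27 and Raly, an hnRNP-family protein, at 0.15. Ncoa3 in untreated KO1 (494.9 to 546.3 CPM) overlapped WT1 (504.5 to 539 CPM). Rbm39 in untreated KO1 (333.5 to 343.1 CPM) lay within WT1 (307.2 to 344.1 CPM). Raly in untreated KO2 (315.4 to 344.7 CPM) overlapped WT1 (301.1 to 326 CPM). In the proteasome and ubiquitin list 3 of 20 were higher and none lower (median 0.06). These were Nsfl1c, a p97 cofactor (0.30), Ube2v1, a ubiquitin-conjugating enzyme variant (0.22), and Psmf1, a proteasome inhibitor subunit (0.17). Without WT1, 7 of the 20 were higher and 6 lower.

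Of 32 cell cycle members, 9 were higher and 2 lower (median 0.03), and without WT1 11 were higher and 11 lower. They include Pcna, the sliding clamp of DNA replication (log2FC 0.27), and Rbl1, a retinoblastoma-family protein (0.13). Untreated Pcna in KO2 (572.2 to 606.5 CPM) overlapped WT1 (531.2 to 622.6 CPM). Untreated Rbl1 in KO1 (193.2 to 206.6 CPM) overlapped WT2 (190.7 to 196.3 CPM). Of 17 kinases and phosphatases 4 were higher and 2 lower (median 0.03), and without WT1 5 were higher and 7 lower. Ptpra, a receptor tyrosine phosphatase, had 0.19 (adjusted p-value 0.0492), from 0.35 in KO1 and -0.001 in KO2. Stk4, the Hippo-pathway kinase MST1, had 0.18, and Csnk2a1, a catalytic subunit of casein kinase 2, had 0.27. Of 7 interleukin and innate immunity members, Ptges2, a prostaglandin E synthase, was higher (0.21) and Ptgs1, the prostaglandin synthase COX-1, was lower (-0.36). The fall of Ptgs1 was in KO1 (log2FC -0.72), while KO2 was at -0.07. Of 6 surface and adhesion members, Cd82, a tetraspanin, was higher (0.21) and Itga6, the integrin alpha 6 subunit, was lower (-0.59). Cd82 in untreated KO1 (45.41 to 52.61 CPM) overlapped WT3 (42.48 to 46.5 CPM).

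KO1 and KO2 also differed from each other. Of 876 members tested in untreated cells, 108 were higher in KO1 than in KO2 (12.3%), against 11.1% of all genes, and 65 were lower (7.42%) against 12.1%.

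In the KO clones IFNG changed some members that the rule had chosen for a small change in WT. The rule capped the change in WT, so these counts do not show a response gained in KO. Of 876 tested, 107 were higher with IFNG (12.2%) against 15.8% of all genes, and 152 lower (17.4%) against 14.8%. These changes were small, with a median absolute log2FC of 0.25 among the 259 called, and 13 of the 259 were at or over 0.5 in size. The most negative was Mdk, which encodes the growth factor midkine, with 0.936 to 1.58 CPM in untreated and 0.449 to 1.12 CPM in IFNG-treated KO libraries (log2FC -0.77, SE 0.22, edgeR FDR-adjusted p-value 0.0156). The most positive was the pseudogene Bambi-ps1, with 0.763 to 1.66 CPM and 1.35 to 2.44 CPM (log2FC 0.72, SE 0.23). In WT their log2 ratios of IFNG to untreated, as in the rule, were -0.35 for Mdk and 0.27 for Bambi-ps1, in the same directions as in KO. Both were named after their values were seen, and both pairs of ranges overlap between treatments over both clones. Within a clone, Bambi-ps1 did not overlap in KO1 (1.27 to 1.66 and 2.11 to 2.44 CPM) or in KO2 (0.763 to 0.914 and 1.35 to 1.70 CPM). Mdk did not overlap in KO2 (0.936 to 1.24 and 0.449 to 0.728 CPM), and overlapped in KO1.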

How the data were processed

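Raw counts per gene were deposited by the authors. Per the paper's methods and the submitters' processing notes, reads were trimmed with BBDuk, aligned to mm10 with HISAT2 2.1.0, technical replicates were merged with SAMtools 1.10, and uniquely mapped fragments were counted with featureCounts 1.6.2, reversely stranded, on Gencode vM18 (per the file headers). The paper's methods name the mm10 RefSeq gene annotation instead, and the headers were followed here. A fragment over overlapping genes was counted for each, and 122 members overlap another member on the same strand. The other deposited count tables, whose columns are libraries that the table of all samples also holds, were not used.

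Here CPM were computed from the totals of the 30 libraries (15566122 to 37992642 counts) after TMM scaling on 14870 genes. Tests were made with edgeR 4.0.16 (quasi-likelihood, filterByExpr, TMM) in R 4.3.3 on the groups compared, with BH adjustment over all genes tested and a threshold of 0.05, and each WT or KO clone contributed its 3 libraries per treatment. Alternatives were DESeq2 1.42.0, RLE scaling, no count filter, other limits for members, stretches and pseudocounts, and leaving out each library or clone. Named members were the 10 that rose and 6 that fell most by the smaller clone mean among those called in all 4 comparisons with KO libraries outside the WT range, the 4 with the highest mean CPM in each of the 3 stretches with the highest lower KO median, and up to 3 called members per function list by mean CPM. Results of some genes, 1 of those 10 among them, are not reported here. The columns carry clone names other than WT2 and WT3 for these clones, which were matched through the deposited tables of single clones that hold the same libraries. Members and lists were chosen with earlier results of these data known. The segments came from recursive binary division, with at least 10 members each, of shifts limited to 1. Precision is limited by counting error and the number of clones.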

Additional observations from a re-analysis of the deposited data

Results flagged for a closer look

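Among 192 groups of library values looked at for the named members, 7 held 1 library far from the others by Dixon's criterion, and chance alone marks about 1 in 20 groups. With IFNG, the lowest WT library of Gm11451 was at 0.587 CPM, with the next at 0.951 CPM. The highest WT library of Zc3h6 with IFNG was at 8.98 CPM, with the next at 6.88 CPM. Among untreated libraries, the highest KO library of Rbm39 was at 371 CPM (next 343 CPM) and the highest WT library of Raly at 326 CPM (next 307 CPM). With IFNG, the lowest WT library was at 152 CPM for Csnk2a1 (next 172 CPM) and at 51.7 CPM for Psmf1 (next 54.9 CPM), and the highest was at 1244 CPM for Ctsa (next 1080 CPM).

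For 7 of the members chosen for a change in both KO clones, the size of the change differed between untreated KO1 and KO2 by edgeR's test with FDR-adjusted p-values over all genes. KO1 was higher than KO2 for Cst3 (log2FC 0.25, adjusted p-value 0.00151), Dstn (0.23, 0.00661), Lrp4 (0.40, 0.0203) and Slc43a3 (0.26, 0.00823). KO1 was lower for Itga8 (-1.31, adjusted p-value 2.22e-05), Bmf (-0.60, 0.00656) and Zc3h6 (-1.10, 0.000239). The cause of these differences was not tested.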

How the results depend on the processing

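Of 423 values under alternative settings, 326 stayed within the tolerance set for them and 97 moved. The tolerance was 1 SD between libraries for a shift and 1.5 times for a count. For the log2FC values of members chosen for a change in both KO clones, it was the same sign and the same side of the threshold, whatever their size. None of the shifts, or of these log2FC values, changed sign. Without WT1 the members called higher and lower were 327 and 182 in untreated KO1, 277 and 145 in untreated KO2, 293 and 152 in KO1 with IFNG, 251 and 131 in KO2 with IFNG, and for both KO clones 317 and 175 untreated and 296 and 164 with IFNG. The counts over all genes rose as well. For the single clones, in the same order, they were 3449 and 3604 of 13818, 2832 and 2794 of 13842, 3118 and 3173 of 13538, and 2554 and 2441 of 13515. With WT1 as the only WT clone, a setting chosen after seeing the data, both KO clones had 103 lower untreated and 272 higher and 92 lower with IFNG. Without KO1 they had 85 and 30 untreated and 76 and 33 with IFNG, and with counts summed per clone 0 and 0 in both treatments. For KO2 with IFNG, 17 members were lower with no count filter, 46 were higher and 18 lower without WT2, and 48 were higher without WT3. For WT2, DESeq2 gave 9 higher and 16 lower and no count filter 2 higher, and for WT3 DESeq2 gave 16 and 19. Against WT3 alone, chosen after seeing the data, WT2 had 73 higher and 65 lower. With clone as a covariate, 147 were higher and 200 lower with IFNG in KO, in place of 107 and 152. Some segment medians of the untreated log2FC did change sign with the WT reference. For both KO clones that of F went from 0.33 to -0.03 with WT1 alone and that of B from 0.085 to -0.048 without WT1, as did Psma7 in F (0.33 to -0.17 with WT1 alone).

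The chromosome 2 median shift over both treatments was 0.0716 in KO1 and 0.0634 in KO2. It became 0.0652 and 0.0565 with a pseudocount of 2, 0.0878 and 0.0729 with no centring, and 0.0643 and 0.0549 without WT1, and in KO1 0.0631 with a minimum of 0.2 CPM and 0.0817 without WT3. The 2 stretches of 10 Mb became 1 with a minimum of 5 CPM, with no response limit, without WT2, without WT3 and in stretches of 5 Mb, and 6 without WT1. The lower KO median from 140 Mb (0.292) was 0.339 with 5 CPM, 0.247 with 0.2 CPM, 0.339 with a response limit of 0.25 and 0.368 without WT1. From 180 Mb (0.343) it was 0.533, 0.245 and 0.259 without WT1, WT2 and WT3, and from 150 Mb (0.158) 0.236, 0.123 and 0.123.

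With each library left out in turn, members called higher and lower ran from 110 to 197 and 37 to 70 in untreated KO1, 40 to 113 and 15 to 38 in untreated KO2, 74 to 149 and 28 to 54 in KO1 with IFNG, and 29 to 101 and 12 to 38 in KO2 with IFNG. The low ends came from leaving out a library of the KO clone itself, whichever of its 3 libraries it was, which left 2 in the group. For KO1 against KO2 they ran from 69 to 98 and 45 to 63, and for IFNG in KO from 82 to 107 and 138 to 159. With 1 library of each clone left out, they ran from 213 to 218 and 236 to 243 for WT1 and were 0 for WT2 and for WT3, the shift was 0.0722 to 0.0783 in KO1 and 0.0598 to 0.0629 in KO2, 1 to 2 stretches were counted, and the lower KO median was 0.297 to 0.325 from 140 Mb, 0.338 to 0.339 from 180 Mb and 0.158 to 0.165 from 150 Mb. No paired analysis was possible because the columns of the count table carry no replicate numbers. The cause of the changes without WT1 was not tested.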

Other observations

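The chromosome 2 genes that were left out for their IFNG response can be placed in the same segments. In segment B, the untreated median shift from WT2 and WT3 over 17 such genes was -0.61 in WT1, -0.14 in KO1 and -0.12 in KO2. In segment D it was 0.42, 0.45 and 0.41 over 23 genes, and in segment F 0.70, 0.50 and 0.53 over 2 genes. In segment A, with 37 such genes, it was 0.05, -0.05 and 0.10, in segment C, with 11, -0.35, -0.26 and 0.02, and in segment E, with 5, -0.15, 1.32 and 0.08. These genes took no part in setting the boundaries, but come from the same libraries.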
